A study of Mus musculus with 2 samples.

Results

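A set of 8 genes whose products tell T cells to start or to stop was followed across the cells of a mouse melanoma: Cd274, Pdcd1lg2, Lgals9, Cd80, Cd86, Cd40, Pvr and Tnfsf9. They were chosen by symbol, and each of the 8 has 1 row among the 27998 genes of both count tables. Cells carrying CD45, the surface marker of blood-derived cells, were sorted alive from B16F10 tumors, a melanoma line, grown under the skin of C57BL/6 mice for 14 days. One group of hosts carried Usp18 with both alleles floxed (Usp18f/f), and the other carried the same alleles plus LysM-Cre. That Cre recombinase is driven by the Lyz2 gene and acts in myeloid cells that have turned it on. Usp18 is an interferon-induced enzyme that removes ISG15 from proteins and restrains type I interferon signalling. Tumors of 4 mice were pooled per group into 1 droplet library each. The design asks what the floxed gene's loss in myeloid cells does to the tumor's immune cells. With 1 library per group, no test between groups is possible: intervals given here cover counting error alone, and differences between mice were not measured.

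T cells read these genes through paired receptors. PD-L1 (Cd274) and PD-L2 (Pdcd1lg2) bind the inhibitory receptor PD-1, galectin-9 (Lgals9) binds Tim-3, and CD155 (Pvr) binds TIGIT, CD96 and the activating receptor CD226. CD80 and CD86 give the second signal through CD28 and are captured by CTLA-4, 4-1BB ligand (Tnfsf9) sustains activated T cells through Tnfrsf9, and CD40 is itself a receptor, through which helper T cells license antigen-presenting cells. In tumors, myeloid cells and dendritic cells are known carriers of most of them, and Cd274, Lgals9 and Cd40 are known to respond to interferons.

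RefSeq's promoter table (GRCm38.p6) held 4 of the 8 members: Cd274, Pdcd1lg2, Lgals9 and Cd80. The sequences of Lgals9 and Cd274, the members that passed 2-fold together in 1 monocyte cluster described further on, are shown, 250 bases before the start site, 5′ to 3′ on the gene's strand. Capitals mark a match to the interferon-stimulated response element, searched as GAAA, any 2 bases and GAAA again, on both strands. Lgals9 lies on the minus strand (chr11:78984925-78985174) and Cd274 on the plus strand (chr19:29367188-29367437).
Lgals9: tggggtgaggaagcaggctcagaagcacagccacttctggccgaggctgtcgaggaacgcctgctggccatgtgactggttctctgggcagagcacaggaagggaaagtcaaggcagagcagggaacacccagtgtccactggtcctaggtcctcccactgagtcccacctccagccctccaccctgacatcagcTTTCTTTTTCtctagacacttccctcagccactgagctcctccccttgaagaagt
Cd274: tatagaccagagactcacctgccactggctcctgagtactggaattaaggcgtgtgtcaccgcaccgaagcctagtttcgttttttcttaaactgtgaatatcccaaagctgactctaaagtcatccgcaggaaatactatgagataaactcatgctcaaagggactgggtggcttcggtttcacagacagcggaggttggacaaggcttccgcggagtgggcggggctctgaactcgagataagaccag
Lgals9 holds 1 match, on the opposite strand, that begins 55 bases before its start site. The same element lies in 2.98% of the 32851 promoter windows of this length. The STAT element TTCNNNGAA (in 7.02% of windows) and the NF-kB element, GGG, any 2 bases and TTTCC (in 1.41%), had no match in the 4 windows, and neither did the interferon element in Cd274, Pdcd1lg2 or Cd80. A match is a run of letters, not a measured binding site.

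The control library held 7754 barcodes with a median of 2600 UMIs (unique molecular identifiers, one for each captured transcript), and the other library 6063 with a median of 4455. After filtering, 6658 and 5451 cells were kept. Cells were grouped into classes from clusters built without the 8 members and named from fixed marker genes; each name means "like". The targeted gene went against its label: Usp18 stood at 18.3 CPM (UMIs per 1000000 UMIs of the class) in control mononuclear phagocytes, meaning monocytes and macrophages together, and at 95.2 CPM in the library labelled knockout. These 3′ tags do not show which exons a transcript holds, so the deletion itself was not checked. Lyz2, whose locus carries Cre, went from 9273 to 17.8 CPM in the same cells, in the direction of the label. Cells with Xist, a transcript of female cells, made up 36.4% of the control cells of determinable sex outside the melanoma class and 86.1% in the library labelled knockout, so host sex and genotype cannot be told apart in the pooled values. Markers of neutrophils moved with the groups too: 537 neutrophils were found in the control and 28 in the other library.

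Migratory dendritic cells, the Ccr7 and Fscn1 expressing dendritic cells that carry antigen to lymph nodes, held the highest level of 6 of the 8 members in each library. In the control these were Cd274, Cd80, Cd86, Cd40, Pvr and Tnfsf9, while Pdcd1lg2 was highest in neutrophils and Lgals9 in macrophages. In the library labelled knockout, where the 28 neutrophils were left out of the order, they were Cd274, Pdcd1lg2, Cd80, Cd86, Cd40 and Pvr, with Tnfsf9 highest in cDC2 (Cd209a dendritic cells) and Lgals9 in monocytes. The class had 141 cells in the control and 173 in the other library, and its 9 markers were all detected.

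**Figure D1:**
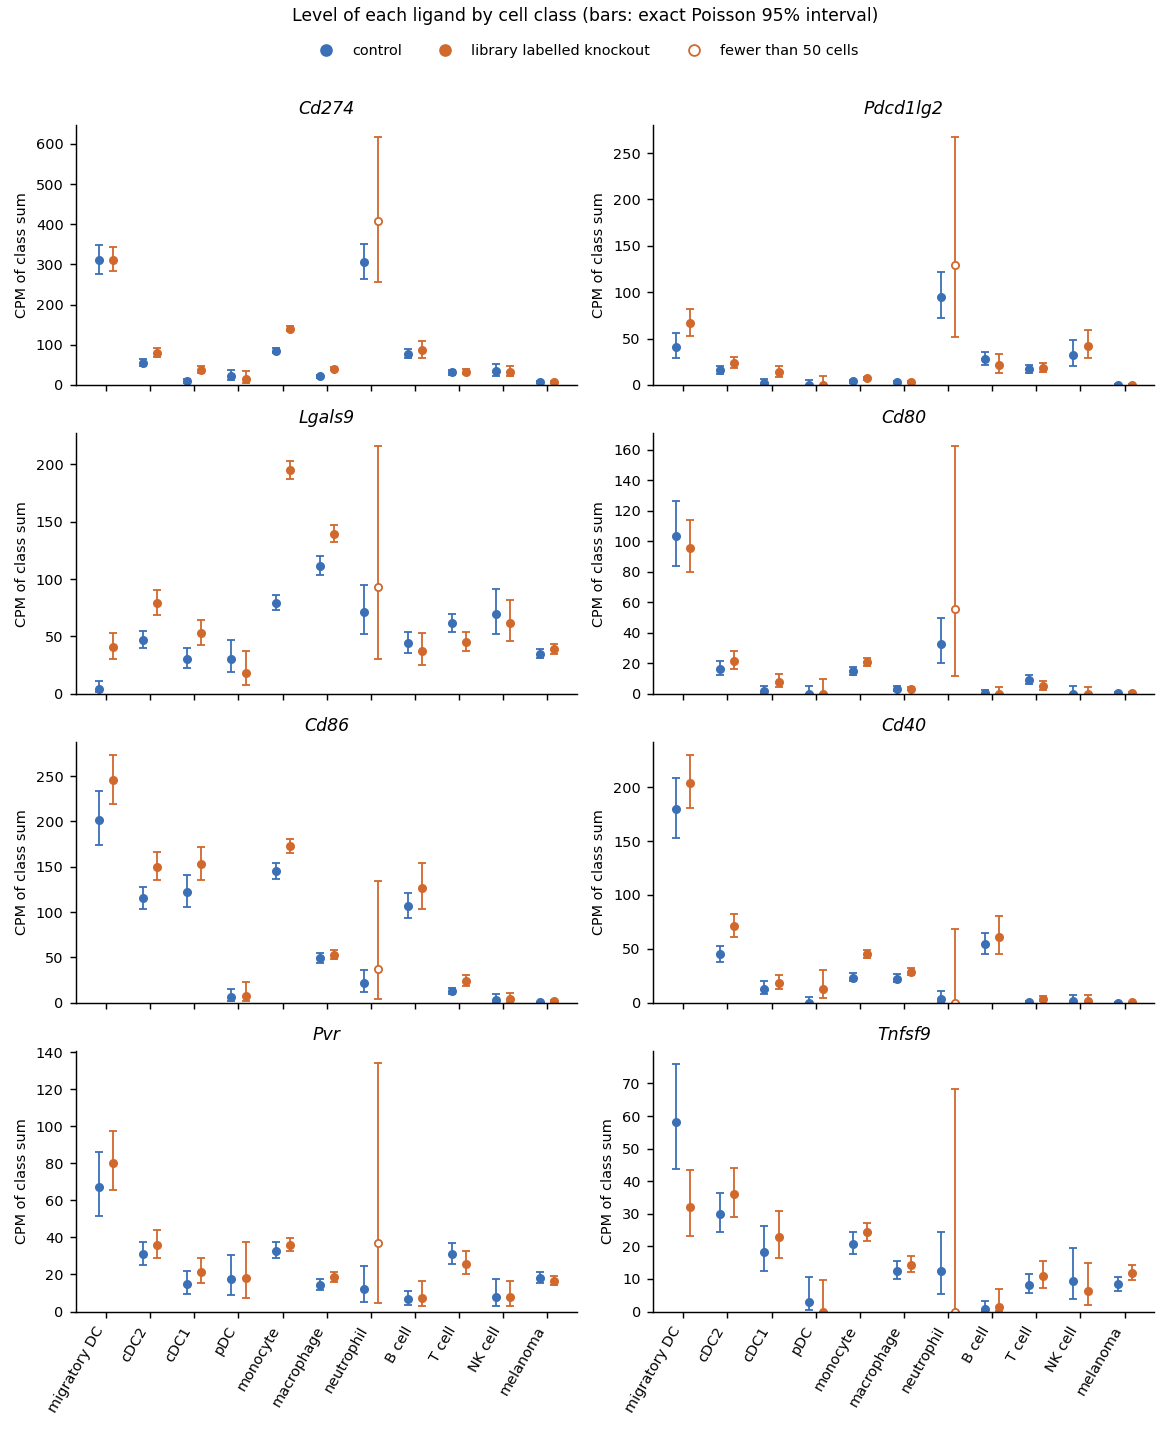
Level of each ligand gene (CPM of the UMIs summed over a class, linear axis per panel) in 11 cell classes, control in blue and the library labelled knockout in orange, with exact Poisson 95% intervals; hollow points are classes under 50 cells. Migratory dendritic cells stand highest for Cd80, Cd86, Cd40 and Pvr in both libraries, and Lgals9 is highest in macrophages (112 CPM, control) or monocytes (195 CPM, library labelled knockout).

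Cd274 (GRCm38 chr19:29367455-29388095), which encodes PD-L1, stood at 310 CPM in control migratory dendritic cells (95% interval 275 to 348) and at 312 CPM (282 to 344) in the library labelled knockout. Control neutrophils stood at 305 CPM (264 to 351), within counting error of the dendritic cells. The 28 neutrophils of the other library gave 408 CPM, of which 54.5% of UMIs came from 1 cell. The next classes in the control were monocytes at 85.4 CPM and B cells at 76.9 CPM, whose intervals overlap, followed by cDC2 at 55.3 CPM. T cells (30.9 CPM), NK cells (35.0 CPM) and macrophages (21.0 CPM) were lower, and cDC1 (Xcr1 dendritic cells) had 9.80 CPM. Melanoma cells held 7.06 CPM of Cd274 in the control and 7.54 CPM in the other library. By number of UMIs, monocytes were the main carriers of PD-L1 transcript, with 33.0% of its UMIs in the control and 53.6% in the library labelled knockout. Their share of the kept cells differed as well, at 17.9% and 31.9%.

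Pdcd1lg2 (chr19:29410919-29471161), the PD-L2 gene and a neighbour of Cd274, was sparse, with 368 UMIs in the control and 411 in the other library. Control neutrophils had 94.4 CPM (72.2 to 121), and migratory dendritic cells had 41.0 CPM in the control and 66.5 CPM in the library labelled knockout. NK cells followed at 32.3 and 41.8 CPM, and their intervals overlap those of migratory dendritic cells in both libraries. Macrophages stood at 3.06 and 3.30 CPM and monocytes at 3.91 and 7.21 CPM, so PD-L2 transcript was low in the cells that carried much of the PD-L1 transcript. After each cell was thinned to 1000 UMIs, 2.90% of migratory dendritic cells and 2.27% of NK cells held a Pdcd1lg2 UMI in the control, against 3.73% and 4.02% in the other library. No order of these classes is read from such low shares.

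Cd80 (chr16:38455561-38496335), a ligand of CD28 and CTLA-4, was concentrated in migratory dendritic cells. They held 104 CPM (84.0 to 127) in the control and 95.5 CPM (79.5 to 114) in the library labelled knockout. The next class in the control, neutrophils, had 32.5 CPM, and the next in the other library, cDC2, had 21.3 CPM. B cells gave 1 Cd80 UMI among 1442 control cells and 0 among 441, and NK cells gave 0 in both libraries, which allows up to 1.39% and 1.84% of thinned NK cells to hold one (exact Clopper-Pearson upper bounds). Of thinned migratory dendritic cells, 13.8% and 9.94% held a Cd80 UMI (39.0% and 45.1% unthinned).

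Cd86 (chr16:36603869-36666081), the partner of Cd80 on CD28, was spread over more antigen-presenting cells. In the control it stood at 202 CPM in migratory dendritic cells, 145 CPM in monocytes, 122.5 CPM in cDC1, 115 CPM in cDC2 and 107 CPM in B cells. In the library labelled knockout the order of these classes was the same, at 245, 173, 153, 150 and 127 CPM. Macrophages had about the same level in both libraries, 49.5 and 53.1 CPM. NK cells (2.69 and 3.80 CPM) and melanoma cells (0.378 and 1.45 CPM) were the lowest classes, and plasmacytoid dendritic cells, makers of type I interferon, came next (5.81 and 7.84 CPM).

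Cd40 (chr2:165055627-165072948), the receptor for CD40 ligand, stood at 179 CPM (153 to 209) in control migratory dendritic cells and at 204 CPM (180 to 230) in the other library. B cells came next in the control at 54.4 CPM and cDC2 at 45.1 CPM, and the order of these neighbours was the reverse in the library labelled knockout (61.0 and 71.0 CPM), with overlapping intervals in both. T cells held 2 Cd40 UMIs in the control and 8 in the other library, over 1236 and 701 cells. Thinned shares were 13.04% and 19.9% of migratory dendritic cells against 0% and 0.502% of NK cells.

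Pvr (chr7:19903578-19921160), the CD155 gene, and Tnfsf9 (chr17:57105325-57107757), the 4-1BB ligand gene, were spread over many classes. Pvr stood at 67.0 and 80.2 CPM in migratory dendritic cells, 32.8 and 36.0 CPM in monocytes, 30.9 and 35.7 CPM in cDC2 and 30.9 and 25.7 CPM in T cells. Melanoma cells held 18.2 and 16.5 CPM of Pvr, and B cells 6.63 and 7.47 CPM. Tnfsf9 in migratory dendritic cells was 58.3 CPM (43.8 to 76.1) in the control and 32.1 CPM (23.1 to 43.4) in the library labelled knockout. In the latter, cDC2 (36.1 CPM), monocytes (24.3 CPM) and cDC1 (22.9 CPM) lay close by, and each neighbour's interval overlapped the next. B cells had 2 and 1 Tnfsf9 UMIs.

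Lgals9 (chr11:78962974-78984946), the galectin-9 gene, followed another pattern than the other 7. It was highest in control macrophages at 112 CPM (104 to 120), ahead of monocytes at 79.0 CPM (72.6 to 85.8). In the library labelled knockout the order was reversed, with 195 CPM (187 to 203) in monocytes and 139 CPM (132 to 147) in macrophages. The reversal did not hold for every monocyte cluster described further on. There cluster 5 had 263 CPM, and clusters 1, 8 and 9 had 150, 130 and 121 CPM. The monocyte names of clusters 5 and 8 are less sure. Macrophage clusters 2 and 13 had 162 and 97.6 CPM. Control migratory dendritic cells, highest for 6 other members, gave 4 Lgals9 UMIs (4.32 CPM, 1.18 to 11.1), the lowest of 11 classes. Lymphoid cells were not free of it: control NK and T cells had 69.95 and 61.6 CPM.

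Free RNA in droplets gives UMIs to cells that do not express a gene, so shares of cells were set beside NK and T cells. The median depth was 6180 UMIs in control migratory dendritic cells and 2296 in control NK cells, and 6543 and 2798 in the other library. Thinned to 1000 UMIs, 26.8% (19.6 to 35.0) and 32.3% (25.1 to 40.1) of migratory dendritic cells held a Cd274 UMI. The NK share was 2.27% (0.838 to 4.88) and 5.03% (2.44 to 9.05). For Lgals9 the share ran the other way: 0% and 3.11% of migratory dendritic cells against 9.85% and 6.03% of NK cells. Of thinned migratory dendritic cells, 42.8% and 38.5% held no member, against 85.2% and 83.9% of NK cells.

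**Figure D2:**
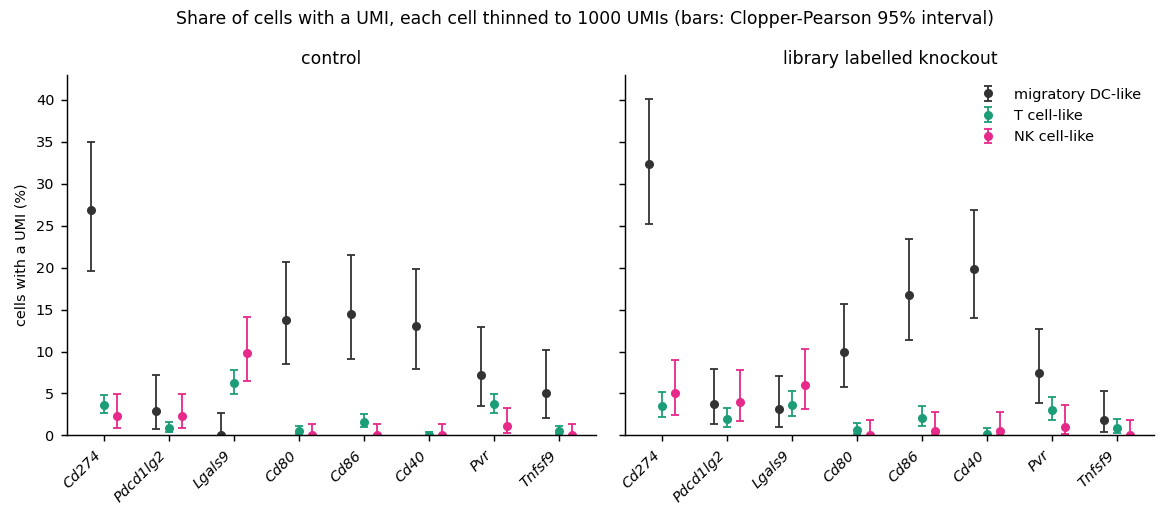
Share of cells (%) with at least 1 UMI of each ligand gene after thinning each cell to 1000 UMIs, for migratory dendritic, T and NK cells, control on the left and the library labelled knockout on the right, with Clopper-Pearson 95% intervals. Cd274, Cd80, Cd86 and Cd40 stand above both lymphocyte classes in each panel, Pdcd1lg2 and Lgals9 do not.

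Members were also counted together within single migratory dendritic cells, beside the number that the product of their shares gives. Cd274 and Cd80 were both present in 7 of 138 thinned control cells, where the product of their shares gives 5.09, and in 9 of 161 cells of the other library, where it gives 5.17. Cd86 and Cd40 were both present in 2 control cells (2.61 from the product). In the library labelled knockout they were together in 12 cells (5.37 from the product), where 44.4% of the cells with Cd86 and 14.9% of those without it held Cd40. Cd40 and Pvr were together in 4 cells in each library (1.30 and 2.385 from the product). These pairs were chosen after their values were seen, and the counts are given with no test. At least 3 members were found in 5.07% of the control cells and 7.45% of the others.

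Between the libraries, no member passed 2-fold in mononuclear phagocytes as a whole, and all 8 lay above 0 on the log2 scale (log2 of CPM plus 5, library labelled knockout over control; members need 20 UMIs over both). Their median log2 ratio was 0.29, beside -0.03 for all 11840 genes tested. Of these genes 1.01% were at least 2-fold higher and 0.101% at least 2-fold lower, and the share above 0 was not counted. Lgals9 went from 94.6 to 169 CPM, a fold of 1.79 (counting interval 1.68 to 1.91). Cd274 went from 54.7 to 94.05 CPM, a fold of 1.72 (1.58 to 1.87). Cd40 went from 22.9 to 37.5 CPM, a fold of 1.64 (1.44 to 1.87), and Pdcd1lg2 from 3.51 to 5.40 CPM, a fold of 1.54 (1.09 to 2.20). The folds of Cd80 (1.35), Cd86 (1.18), Pvr (1.17) and Tnfsf9 (1.17, interval 0.997 to 1.38) were smaller. Monocytes made up most of these cells in both libraries, 1189 and 1741 of them, and macrophages 602 and 925.

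The fold of Lgals9 was larger in monocytes than in macrophages. Lgals9 was the 1 member of 8 past 2-fold there, where 1.89% of 10895 genes were as much higher and 0.184% as much lower. It went from 79.0 to 195 CPM, a fold of 2.47 (2.25 to 2.71), and its intervals in the libraries lie far apart. Cd40 went from 23.3 to 44.99 CPM (fold 1.93, 1.62 to 2.31) and Cd274 from 85.4 to 140 CPM (fold 1.64, 1.49 to 1.80). The share of thinned monocytes with a Cd274 UMI was 8.65% and 12.8%. In macrophages 0 of 8 passed 2-fold (0.364% of genes higher, 0.136% lower); Cd274 had the largest fold there, 1.94 (1.59 to 2.37), from 21.0 to 40.6 CPM. Usp18 itself had a fold of 7.61 in monocytes and 2.04 in macrophages.

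**Figure D3:**
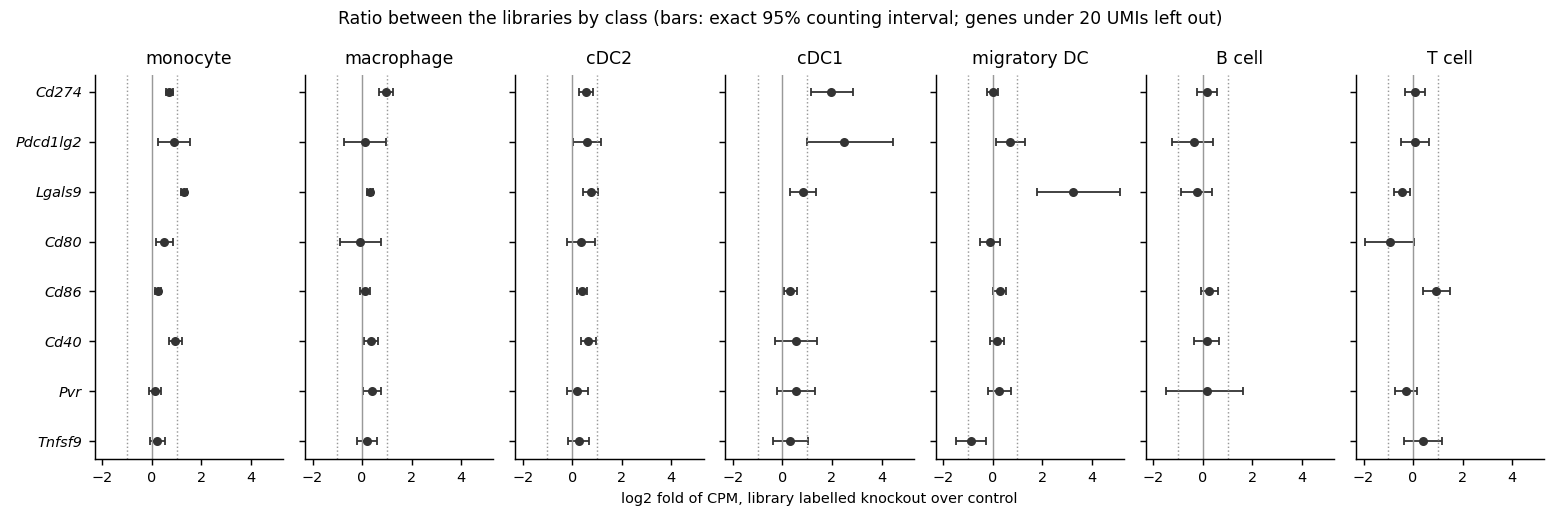
Log2 fold of CPM, library labelled knockout over control, for each ligand gene with at least 20 UMIs in 7 classes, with exact 95% counting intervals; dotted lines mark 2-fold. Lgals9 in monocytes (fold 2.47) and migratory dendritic cells (fold 9.38) and Cd274 and Pdcd1lg2 in cDC1 (folds 3.91 and 5.65) lie to the right of the upper line, and Tnfsf9 in migratory dendritic cells (fold 0.550) lies left of 0.

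The monocytes fell into 4 clusters, and their levels of PD-L1 transcript differed. Cluster 8, led by Ppbp, Arg1 and the hypoxia genes Egln3 and Hilpda, held the highest Cd274 level, 187 CPM (167 to 209) in the control and 341.5 CPM (312 to 373) in the library labelled knockout. A Cd274 UMI was found in 17.0% of its thinned control cells and in 28.3% of the others. The monocyte name of cluster 8 is less sure. It had 3 monocyte markers detected, 0 of them among its top 10 genes, and a mean marker log2 fold of 0.70. Cluster 5, led by the chemokine genes Ccl24, Ccl7 and Ccl2, went from 41.2 to 136 CPM, a fold of 3.29 (2.43 to 4.57). Its name is less sure: 1 monocyte marker, Fn1, was among its top 10 genes, and clusters led by the same chemokine genes were named macrophage with a mitochondrial limit of 5% and when the library labelled knockout was clustered on its own. Cluster 1 (Vcan, Chil3) stood at 58.1 and 88.3 CPM and cluster 9 (Ace, Treml4) at 55.6 and 80.7 CPM. Cluster 5 had 118 control cells and 559 cells in the other library, so the 2 monocyte pools differ in makeup as well as in level. Cluster 5 may itself differ in makeup. A monocyte cluster led by Lipg, a top 10 gene of cluster 5, had 0 control and 105 other cells at Leiden resolution 2. With the mitochondrial limit of 5% such a cluster had 1 and 138 cells. Its part in the folds of cluster 5 was not tested.

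Past 2-fold in cluster 5, on the log2 scale with 5 CPM added, were Cd274 and Lgals9 (4.13% of genes higher, 0.337% lower). Cd40 fell just short there, with a log2 ratio of 0.9997. It went from 25.3 to 55.6 CPM, a fold of 2.20 (1.48 to 3.39). In cluster 8 the members past 2-fold were Lgals9 and Cd40 (3.67% higher, 1.65% lower). In cluster 9, where 6 of the 8 were tested, it was Lgals9 (2.24% higher, 0.608% lower). Cluster 1 had 0 of 8 past 2-fold (1.04% higher, 0.15% lower), with folds of 1.64 for Lgals9 and 1.83 for Cd80 (1.30 to 2.63). Pdcd1lg2, with 10 and 28 UMIs there, had a fold of 2.16 (1.02 to 4.99) but a log2 ratio of 0.55 with 5 CPM added. Lgals9 in cluster 5 went from 101 to 263 CPM, and in cluster 9 from 56.3 to 121 CPM. Cd40 in cluster 8 went from 9.51 to 30.7 CPM, a fold of 3.23 (1.78 to 6.12). Cd86 in cluster 8 went from 156 to 259 CPM, a fold of 1.66 (1.41 to 1.95). C1q-rich macrophages (cluster 2) had Cd274 at 24.0 and 50.7 CPM, and cycling macrophages (cluster 13) at 15.75 and 17.9 CPM; neither cluster had a member past 2-fold on the log2 scale with 5 added (0.444% and 0.37% of genes higher, 0.232% and 0.349% lower).

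**Figure D4:**
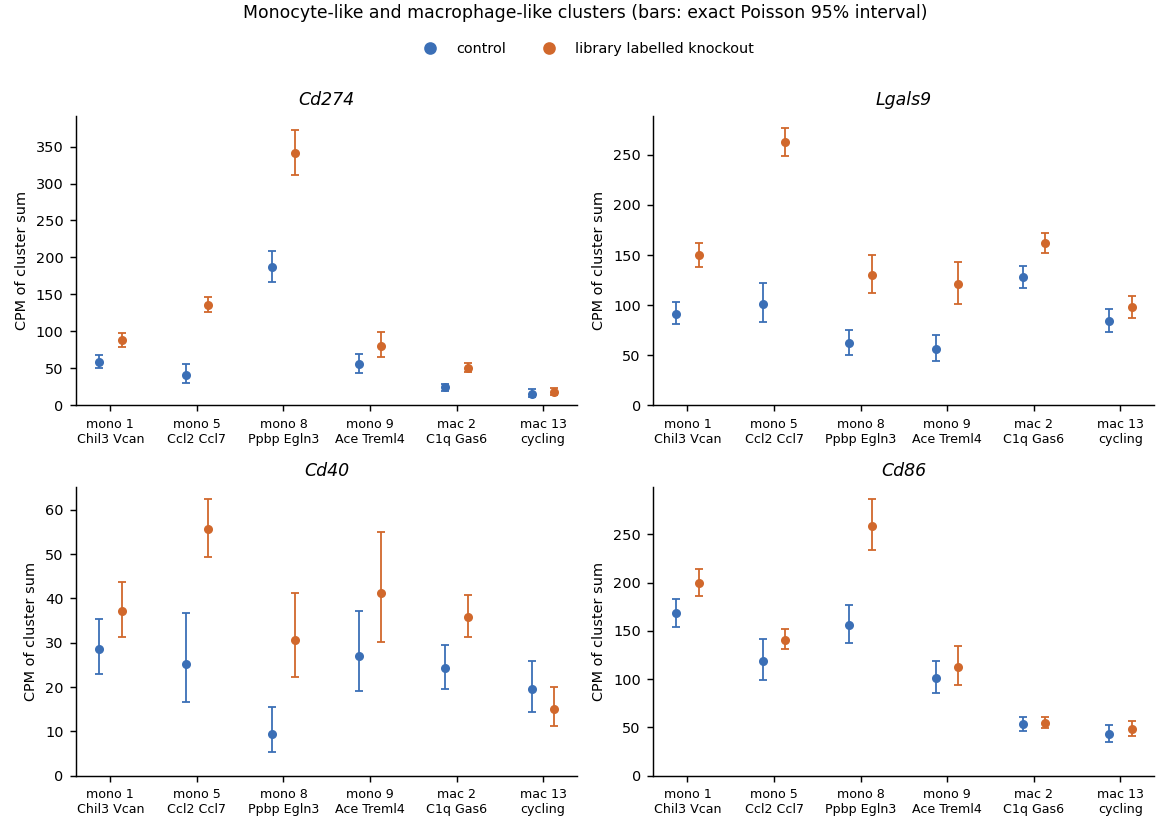
CPM (linear axis) of Cd274, Lgals9, Cd40 and Cd86 in 4 monocyte-like and 2 macrophage-like clusters, control in blue and the library labelled knockout in orange, with exact Poisson 95% intervals. Cd274 is highest in cluster 8 (187 and 341.5 CPM), and Lgals9 in cluster 5 of the library labelled knockout (263 CPM).

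Host sex was split because the pools differ in it. In monocytes with Xist (292 and 1340 cells) Lgals9 went from 98.7 to 200.2 CPM, a fold of 2.03 (1.73 to 2.39), and in those with Y-linked UMIs (528 and 132 cells) from 72.0 to 162 CPM, a fold of 2.25. Cd40 likewise had folds of 2.06 and 2.38 in monocytes of either sex. For Cd274 the folds were less alike: it went from 97.5 to 149 CPM in monocytes with Xist, a fold of 1.53, and from 73.1 to 76.0 CPM in those with Y-linked UMIs, a fold of 1.04 (0.773 to 1.38). Within the monocyte clusters the Cd274 folds, in cells with Xist and with Y-linked UMIs in that order, were 2.19 (1.18 to 4.60) and 2.32 (1.11 to 4.68) in cluster 5, where as few as 18 control cells had Xist and 23 cells of the other library Y-linked UMIs. They were 1.43 (1.04 to 2.01) and 0.782 (0.409 to 1.39) in cluster 1, and 0.843 (0.496 to 1.43) and 3.10 (1.66 to 5.95) in cluster 9. In cluster 8, the richest in Cd274, cells with Y-linked UMIs numbered 120 in the control and 4 in the library labelled knockout, and the fold in cells with Xist was 1.60 (1.25 to 2.05). So the clusters behind the monocyte fold of 1.04 differ between the libraries. Cd80 in monocytes had folds of 2.14 (1.32 to 3.68) and 0.712 (0.325 to 1.40), and the second interval includes 1. In mononuclear phagocytes as a whole Cd274 had folds of 1.80 and 0.749, Cd86 of 1.49 and 0.580, and Cd80 of 2.06 and 0.309, in cells with Xist and with Y-linked UMIs in that order. The mix of the classes differed as well: of the cells with Y-linked UMIs, 528 were monocytes and 299 macrophages in the control, and 132 and 218 in the library labelled knockout. In the classes taken singly, Cd274 in cells with Y-linked UMIs was not lower: its fold was 1.04 in monocytes and 1.27 (0.886 to 1.83) in macrophages, from 16.7 to 21.3 CPM, so the pooled 0.749 goes with fewer of the Cd274-richer monocytes. For Cd86 the fold in such cells was 1.07 (0.872 to 1.29) in monocytes and 0.590 (0.451 to 0.766) in macrophages. Cd80 in such macrophages had 13 and 2 UMIs, a fold of 0.193 (0.0211 to 0.852). In cluster 2 macrophages with Y-linked UMIs (188 and 142 cells) Cd86 went from 55.5 to 24.1 CPM, a fold of 0.434 (0.301 to 0.617), past 2-fold lower.

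**Figure D5:**
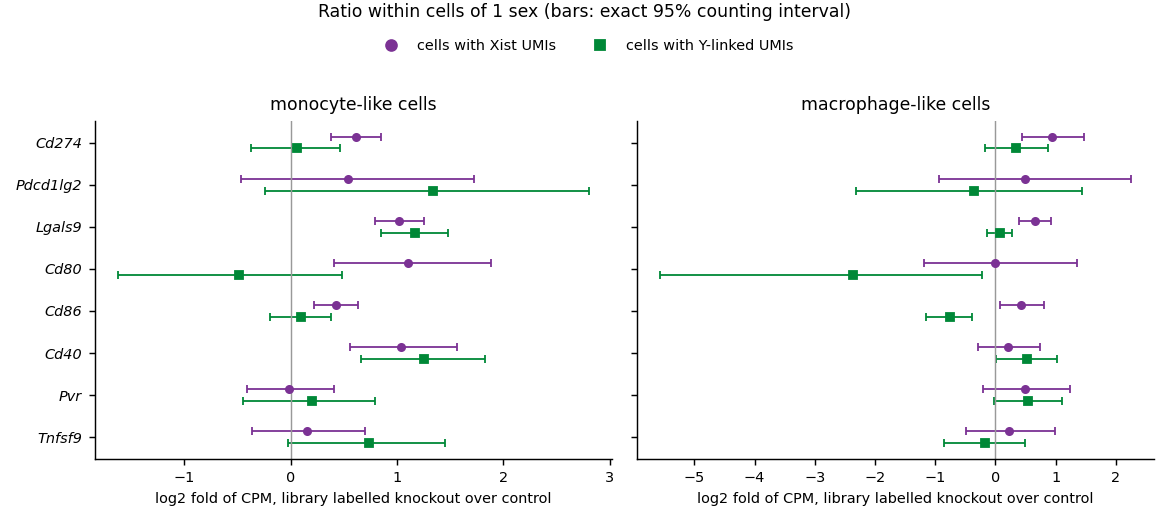
Log2 fold of CPM, library labelled knockout over control, within cells with Xist (circles) and cells with Y-linked UMIs (squares), for monocyte-like and macrophage-like cells, with exact 95% counting intervals. In monocytes Lgals9 (folds 2.03 and 2.25) and Cd40 (2.06 and 2.38) lie right of 0 in cells of either sex; Cd274 (1.53 and 1.04) does so in cells with Xist.

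In migratory dendritic cells 1 of 8 members passed 2-fold, Lgals9, where 5.23% of 7554 genes were as much higher and 0.649% lower. It had 4 UMIs in the control and 53 in the other library, a fold of 9.38 (3.45 to 35.7), and 18.9% of the 53 came from 1 cell. Markers of other cells moved with it: in this class the summed level of the 8 T cell markers was 87.5 and 572 CPM, of the 8 NK markers 10.8 and 112 CPM, and of the 9 monocyte markers 275.5 and 1421 CPM. Without cells that held 2 or more UMIs of another class's markers, the log2 ratio of Lgals9 was 1.69, against 2.29 with them; after thinning it had too few UMIs for a ratio. Tnfsf9 had a fold of 0.550 (0.359 to 0.839), Cd86 of 1.22 (1.01 to 1.46), Pdcd1lg2 of 1.62 (1.09 to 2.44), and Cd274 (1.01), Cd80 (0.921), Cd40 (1.14) and Pvr (1.20) had intervals that include 1. Cells with Xist were 19.8% of the sexed migratory dendritic cells in the control and 87.0% in the other library, and in those with Xist (19 and 120 cells) Cd274 had a fold of 0.783 (0.573 to 1.09) and Lgals9 had 1 and 43 UMIs.

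The other dendritic cells differed between themselves. In cDC2 all 8 members lay above 0, with a median log2 ratio of 0.42, beside -0.01 for all 9592 genes tested. The share of all genes above 0 was not counted. None of the 8 passed 2-fold in cDC2 (0.876% of genes higher, 0.24% lower). The largest folds in cDC2 were those of Lgals9 (1.67, 1.35 to 2.07), Cd40 (1.57, 1.26 to 1.97) and Pdcd1lg2 (1.51, 1.03 to 2.24). Among cDC2 with Xist, which were 19.0% and 90.9% of the sexed cDC2, the log2 ratio was 1.01 for Lgals9 but -0.44 for Pdcd1lg2, -0.45 for Cd80 and -0.10 for Cd86. In cDC1, Cd274 and Pdcd1lg2 passed 2-fold of 7 members tested (2.93% of genes higher, 0.578% lower). Cd274 had 16 and 72 UMIs there (fold 3.91, 2.25 to 7.20), and Pdcd1lg2 had 4 and 26 (fold 5.65, 1.96 to 22.3). The T cell markers in cDC1 summed to 50.2 and 308 CPM with none of the 8 at 0, and 8 of the 11 tested genes of the receptor list (Ctla4, Icos, Cd28 and others carried by T cells) were past 2-fold in the same cells. Without cells holding 2 or more UMIs of another class's markers, 0 members passed 2-fold in cDC1 and the log2 ratio of Cd274 was 0.92, against 1.55 with them. By sex, Cd274 had 0 and 60 UMIs in cDC1 with Xist (14 and 122 cells) and 13 and 3 UMIs in those with Y-linked UMIs (94 and 23 cells).

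Lymphocytes and tumor cells were compared in the same way, with fewer members above 20 UMIs. No member passed 2-fold in B cells (6 tested; 0.378% of genes higher, 0.993% lower), T cells (7 tested; 1.15% and 0.138%), NK cells (3 tested; 1.39% and 2.26%) or melanoma cells (4 tested; 0.0957% and 0.0435%). The melanoma class of the library labelled knockout holds a shallow cluster of 198 cells (13 in the control); in cluster 14, melanoma cells without it, 0 of 4 passed as well (0.0437% and 0.0612%). B cells, which present antigen to T cells, kept Cd86 at 107 and 127 CPM (fold 1.19, 0.936 to 1.51) and Cd40 at 54.4 and 61.0 CPM (fold 1.12, 0.788 to 1.57). T cells had Cd86 at 12.4 and 23.8 CPM (fold 1.92, 1.30 to 2.85) and Lgals9 at 61.6 and 45.1 CPM (fold 0.732, 0.584 to 0.914). Both depend on which cells are counted: the log2 ratio of Cd86 was 0.73, and 0.31 without cells holding UMIs of another class's markers, and that of Lgals9 was -0.41, and 0.58 with doublets kept. In melanoma cells Tnfsf9 stood at 8.32 and 11.8 CPM (fold 1.42, 1.04 to 1.95), and the log2 ratio of 0.33 became -0.31 when each cell was weighted alike.

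The members' partners were read in the same cells. Of the 14 receptor genes listed, all tested in T cells, 1 passed 2-fold (1.15% of genes higher, 0.138% lower). It was Tnfrsf9, the receptor of Tnfsf9, at 147 and 318 CPM (fold 2.16, 1.94 to 2.41). NK cells had Tnfrsf9 at 112 and 239.5 CPM (fold 2.15, 1.65 to 2.81). In T cells Pdcd1, the receptor of PD-L1 and PD-L2, stood at 109 and 146 CPM, Havcr2, which encodes Tim-3, at 51.4 and 79.3 CPM, and Ctla4 at 227 and 283 CPM. Cd28 had 318 and 268 CPM, Cd226 75.75 and 57.4 CPM and Cd40lg 12.2 and 8.19 CPM. Tigit, an inhibitory receptor of CD155, was sparse, with 15 and 30 UMIs (fold 2.94, 1.53 to 5.88), and did not pass 2-fold with 5 CPM added. Tnfrsf4 (fold 1.79) and Lag3 (fold 1.84) also stood higher in the library labelled knockout, and Cd96 (fold 0.750) and Btla (fold 0.611) lower. The T cell pools differ in makeup. A cluster led by Ctla4, Ikzf2 and Foxp3, with Tnfrsf9, Tnfrsf4 and Icos in its top 10 genes, held 165 of 1236 control T cells. In the other library it held 127 of 701, and its part in these levels was not tested.

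Of 26 other ligand genes listed, 23 were in the tables. In mononuclear phagocytes 16 were tested and 0 passed 2-fold (1.01% of all genes higher, 0.101% lower). The median log2 ratio of the 16 was 0.12. In migratory dendritic cells 12 were tested and 2 passed 2-fold: Cd48, a ligand of CD244, at 57.2 and 121 CPM, and Lgals3, the galectin-3 gene, at 432 and 890.4 CPM. Over all genes of this class 5.23% were as much higher, and monocyte markers (275.5 and 1421 CPM) and T cell markers (87.5 and 572 CPM) moved with them, whose part in these values was not tested. Lgals3 was also past 2-fold in B, T and NK cells (0.378%, 1.15% and 1.39% of genes higher, 0.993%, 0.138% and 2.26% lower). In monocytes it stood at 3685 and 4027 CPM. In monocytes 1 of 16 passed (1.89% of genes higher, 0.184% lower): Tnfsf8, with 6 and 80 UMIs, at 0.838 and 6.87 CPM.

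Genes with the most similar profiles were sought over 22 points, the 11 classes in the 2 libraries, among 11125 genes. The points share library and class depth, so the values describe these sums. For Cd274 the nearest were Mthfsl (Pearson r of 0.90), Gadd45b (0.89) and Nfkbia (0.89). For Cd86 they were the MHC class II gene H2-Eb1 (0.86), Gm6377 (0.86) and Cd40 (0.85), and for Cd40 they were Stxbp3 (0.90), Etv3 (0.86) and Cd86 (0.85). Pvr had Polb (0.87), Cd80 (0.83) and Ramp3 (0.81). Pdcd1lg2 had Rab8a (0.91), Cd80 had Pfkfb3 (0.91), Tnfsf9 had Rap2a (0.90) and Lgals9 had Slc30a1 (0.85) as its nearest gene. Among the members, Cd274 went with Cd80 (0.84) and Pdcd1lg2 (0.80), while Lgals9 had values between -0.16 and 0.09 with the other 7.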

How the data were processed

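Raw UMI counts per gene and barcode, deposited by the authors, came from Cell Ranger 3.0.1 on the mm10 build, per the submitters' processing notes; no normalization is in the files. In Python 3.11.15 with scanpy 1.11.5 and leidenalg 0.10.2, barcodes needed 200 detected genes and no more than 10% of UMIs from mitochondria. Scrublet's own threshold called 0 doublets in both libraries, so barcodes with the top scores were taken out, 0.8% for every 1000 barcodes (480 and 294). The libraries share 8 barcode sequences. Both were clustered together (2000 variable genes, 30 principal components, 15 neighbours, Leiden resolution 1) without the 8 members, the listed ligands, interferon, sex-linked and technical genes. Clusters took the class with the highest mean marker fold among those with at least 3 markers detected. Of 24 clusters 1, with 388 and 307 cells, stayed unnamed. Its best class was T cell, but genes of the Klra and Klrc families were among its top genes. The naming limits were set after the data were seen, and the members, lists and tests were chosen with earlier results of these data known.

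UMIs were summed per class and library and given as CPM with exact Poisson intervals. Ratios are log2 of CPM plus 5, for genes reaching 20 UMIs in the sum of the libraries and classes with at least 100 cells in each; counting intervals of folds are exact conditional ones, and the script was tested on simulated counts. Sex was read from Xist and Ddx3y, Eif2s3y, Kdm5d and Uty. Named beside the members, by a rule fixed with the design, are Usp18, Lyz2, listed ligands and receptors at least 2-fold apart or highest, and the 3 most similar genes. Gene coordinates are from GENCODE M21 (GRCm38, the same assembly as mm10). Alternatives covered the pseudocount, UMI minimum, scaling, cell weighting, free RNA, mitochondrial limit, doublets, clustering, gating, sex and thinning.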

Additional observations from a re-analysis of the deposited data

Results flagged for a closer look

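Xist, outside the comparisons, stood at 371 CPM in the control and 904 CPM in the library labelled knockout, over cells other than melanoma, far above the level of 3 UMIs in either library; the Y-linked genes summed to 166 and 41.9 CPM.

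Between cell classes, the ratio of Lgals9 had counting intervals on opposite sides of 1: a log2 ratio of 2.29 in migratory dendritic cells and -0.41 in T cells. The same held for Tnfsf9, with 0.33 in melanoma cells and -0.77 in migratory dendritic cells. Between cells with Xist and cells with Y-linked UMIs, the same held in mononuclear phagocytes for Cd274 (0.80 and -0.37; for the latter kind, 0.05 in monocytes alone and 0.28 in macrophages alone, and fewer of these cells were monocytes in the library labelled knockout), Cd80 (0.73 and -0.90) and Cd86 (0.55 and -0.74), and in macrophages for Cd86 (0.39 and -0.67). The same shift in class mix applies to Cd80 and Cd86. In cells with Y-linked UMIs the log2 ratio of Cd80 was -0.37 in monocytes and -0.58 in macrophages (13 and 2 UMIs). That of Cd86 in such monocytes was 0.09. Of the class values above, 2 changed sign with the processing. The log2 ratio of Lgals9 in T cells was 0.58 with doublets kept. That of Tnfsf9 in melanoma cells was -0.31 with each cell weighted alike. With 1 library per group these differences were not tested.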

How the results depend on the processing

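Counts of members past 2-fold changed as follows, with no member past 2-fold lower in a whole class in any setting (Cd86 was in cluster 2 macrophages with Y-linked UMIs, at log2 -1.06) and no ratio past 2-fold turned to the other sign. In cDC1 the count of 2 was 1 with a mitochondrial limit of 5%, with doublets kept, with each library clustered on its own and with cells gated 1 by 1 (there Lgals9, not Cd274). It was 0 with a minimum of 100 UMIs, at Leiden resolution 2, after thinning, and without cells holding UMIs of another class. In migratory dendritic cells the count of 1 was 0 with a minimum of 100 UMIs and after thinning, where Lgals9 no longer had enough UMIs. In monocytes the count of 1 was 2 with the mitochondrial limit of 5%, at resolution 2, with separate clustering and in cells with Y-linked UMIs (Cd40 joined Lgals9). It was 3 with gating, where Cd274 joined too, and 0 in cells with Xist, where the log2 ratio of Lgals9 was 0.98. Counts of 0 became 1 in mononuclear phagocytes with the 5% limit (Lgals9, log2 1.03) and with gating (Cd274, 1.01), in macrophages (Cd274, 1.03) and melanoma cells (Cd274, 1.19) with each cell weighted alike, and in cDC2 with Xist (Lgals9, 1.01). In T cells the count became 1 with the 5% limit (Cd40, which then had enough UMIs), at resolution 2 (Cd86, 1.41) and in cells with Xist (Cd86, 1.05), and 2 with doublets kept (Cd86 and Cd40). NK cells with Xist (57 and 159 cells) gave 2, Cd274 (1.06, from 2 and 21 UMIs) and Pdcd1lg2 (1.52, from 2 and 30 UMIs). Their fold intervals, 0.614 to 22.1 and 0.911 to 31.0, include 1. The share of all genes past 2-fold is given for the main setting alone, so the counts in other settings have none beside them. The cause of these changes in count was not tested.

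Migratory dendritic cells held the highest level of 5 or 6 members in each library under every alternative that gave a value. Leaving out clusters with a median under 1000 UMIs, or cells with UMIs of another class, was chosen after seeing the data. Sex splits under 50 cells in either library were left out of these counts. Depth limits Pdcd1lg2 and Cd80 most, with 368 and 341 UMIs in the control. No paired analysis was possible because each group has 1 library.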

Other observations

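Among listed ligands of migratory dendritic cells, named here after their values were seen, Cd70 (a ligand of CD27) stood at 45.4 CPM in the control and 22.9 CPM in the other library (a fold of 0.505, counting interval 0.305 to 0.827). Icosl (the ligand of ICOS) stood at 109 and 71.1 CPM (fold 0.651, 0.486 to 0.872), and Cd83 at 593 and 462 CPM (fold 0.780, 0.693 to 0.877). Tnfsf9 lay on the same side in these cells, with a fold of 0.550, while 6 of the 8 members lay above 0. Of the 12 listed ligands tested there, 2 passed 2-fold higher and 0 lower, and their median log2 ratio was -0.09. Markers of T cells and monocytes differed in this class too, as given above, and their part in these values was not tested.

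In mononuclear phagocytes, also named after their values were seen, H2-T23, which encodes the NKG2A ligand Qa-1, stood at 129 and 217 CPM (fold 1.68, 1.59 to 1.77). Vsir, the VISTA gene, stood at 236 and 174 CPM (fold 0.738, 0.705 to 0.774) and Ceacam1 at 34.0 and 20.1 CPM (fold 0.593, 0.519 to 0.677).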
